A study of Mus musculus with 14 samples.

Results

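The visual cycle of the retinal pigment epithelium (RPE) was followed through 9 genes, Rpe65, Lrat, Rdh5, Rdh10, Rdh11, Rlbp1, Rgr, Rrh and Stra6, out of 34452 mouse genes in the count table. They were taken by name, as genes whose products import, store, convert or carry retinoids, and Rpe65 was set against the other 8 in both eyes of 7 mice. In the eye with the Nrf2 vector Rpe65 was lower in all 7 mice, with a group mean of 343 CPM (counts scaled to a library total of 1e+06) against 1424 CPM in the control eye. The library Nrf2 4 alone held 1063 CPM, and without mouse 4 the means were 223 ± 75.8 and 1291 ± 481 CPM (SD, n = 6). Rpe65 passed the edgeR test at an adjusted p under 0.05, but not in 5 of the 7 fits that each omitted a single mouse (up to 0.065). Of the other 8 genes 0 passed the same edgeR test (0 also at an unadjusted p under 0.05, and 0 by DESeq2 or voom after adjustment). Since 3.43% of all genes tested passed, 0 of 8 is near the background share. Rpe65 was lower relative to each of the other 8 genes.

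The RPE is the pigmented epithelium behind the photoreceptors, and it regenerates the light-sensitive chromophore that rods and cones consume. Vitamin A in the trans form is bound to fatty acids by LRAT, RPE65 turns the resulting ester into the cis alcohol, and retinol dehydrogenases oxidise it to cis-retinal, which returns to the photoreceptors. RPE65 is the isomerase of this cycle, and loss of its function in people causes early-onset blindness.

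RNA was sequenced from the RPE of rd1 mice at postnatal day 20, 1 library from each eye, 14 libraries in all. The rd1 mice were of the strain FVB/N, in which total loss of Pde6b function kills the rods. Both groups received AAV-Best1-GFP, an adeno-associated virus with a 7M8-type capsid that expresses green fluorescent protein from the human Best1 promoter, which is active in the RPE. The control eye received this vector alone, and the Nrf2 eye of the same mouse also received AAV-Best1-Nrf2, an AAV8 vector that carries the human cDNA of the stress-response transcription factor Nrf2 behind the same promoter. Transgene and added vector therefore came together in each Nrf2 eye and cannot be told apart. Libraries are called control or Nrf2 followed by the replicate number in the labels. Libraries with the same number were taken as the eyes of 1 mouse. The labels mention 2 sequencing runs without assigning libraries to them, so no comparison within a run was made.

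Total counts per library ranged from 16548349 to 50543008. The transcript of the vector, human NFE2L2, exceeded the control eye's level in each of the 7 mice, with a median of 5868 CPM (1163 to 8711) against 51.8 CPM (1.12 to 1163) in control eyes. A pair of libraries stood apart from their groups: the vector transcript reached 1163 CPM both in the library labelled control 3 and in the one labelled Nrf2 4. Of all 91 pairs of libraries these were also the most alike across genes, with a Pearson r of 0.9825 of log2 CPM against 0.9737 for the next pair, Nrf2 1 and Nrf2 3. Results below are therefore given with all 7 mice. The fold change of Rpe65, its ratios and share, and the number of retinoid genes called are given again without mice 3 and 4. Other results include these mice unless stated. The library Nrf2 2, with the lowest total count, was the least like the others, with r from 0.7818 to 0.837, and was kept. All 21 other RPE genes on a list of markers had enough counts to be tested, with a sum from 10376 to 20709 CPM in the control libraries and from 13483 to 20532 CPM in the Nrf2 libraries. Mouse Best1, the gene whose human promoter drives the vectors, had the lowest mean of them in both groups, at 0.919 to 3.84 CPM in control eyes and 0.302 to 2.44 CPM in Nrf2 eyes. Transcripts of neighbouring retinal cells were present as well. The sum of 10 rod genes ranged from 43.6 to 564 CPM in control and from 16.1 to 143 CPM in Nrf2 eyes, and that of 10 cone genes from 52.3 to 1292 CPM and from 29.0 to 150 CPM. For 9 Müller glia genes the ranges were 1492 to 4144 CPM and 2447 to 2969 CPM. Most of that sum came from Dkk3, Car14 and Glul, with control means of 1509, 1116 and 325 CPM. Each of the others had a control mean of at most 73.9 CPM, with Aqp4 at 23.5 and Kcnj10 at 9.42 CPM. How much of the sum came from Müller glia was not tested. No gene of these lists was at 0 in every library.

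Rpe65 (ENSMUSG00000028174, chromosome 3, 159599175 to 159625321, plus strand, GRCm38) stood at 1296, 1155, 975, 2220, 752, 1425 and 2145 CPM in control libraries 1 to 7. The Nrf2 eyes of the same mice held 316, 147, 303, 1063, 213, 226 and 134 CPM. Hence 6 of the 7 Nrf2 libraries lay below the lowest control library, and Nrf2 4, at 1063 CPM, lay within the control range. The group means were 1424 ± 562 CPM in control and 343 ± 325 CPM in Nrf2 eyes (SD, n = 7). In the quasi-likelihood test of edgeR with mouse as a term, the log2 fold change was -2.17 (SE 0.37, Benjamini-Hochberg adjusted p 0.0199). The paired difference of log2 CPM was below 0 in 7 of 7 mice, from -4.00 in mouse 7 to -1.06 in mouse 4, with p = 0.0156 when the signs were permuted exactly (two-sided), the smallest value that 7 mice allow. Among all 16289 genes tested, 3.43% were called at an adjusted p under 0.05 and 0.491% were called lower, and of the 9 visual cycle genes 1 was called, Rpe65. By size of the fold change it was the 10th of the 80 genes called lower. Without mice 3 and 4 its log2 fold change was -2.59 (SE 0.38, edgeR adjusted p 0.0169), and it was again the only one of the 9 called, where 4.5% of all genes were called and 1.53% were called lower. In fits that each omitted 1 mouse the log2 fold change was between -2.39 and -1.90, and the edgeR adjusted p ran from 0.00693 to 0.0651, above 0.05 without mouse 1, 2, 3, 5 or 6. In bulk RNA of a tissue, fewer cells that express a gene and less RNA per cell cannot be told apart.

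**Figure D1:**
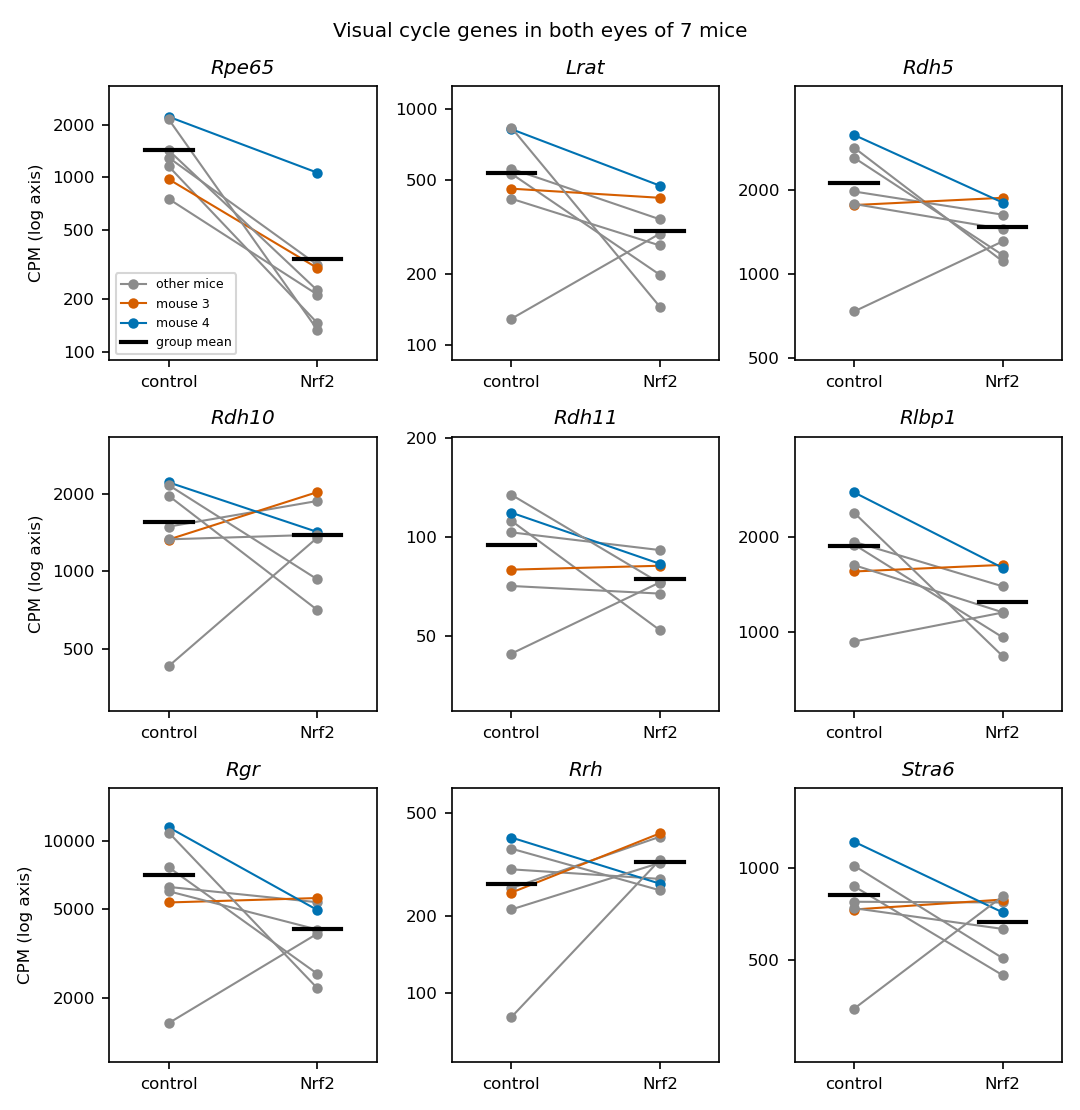
CPM (log axis) of each of the 9 genes in the control and the Nrf2 eye of 7 mice, with a line for each mouse, mice 3 and 4 in colour and black bars for group means. The Rpe65 lines all run downward and only the Nrf2 library of mouse 4, at 1063 CPM, reaches the control range, whereas lines cross in the other genes.

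The partner enzymes on either side of Rpe65 were examined next. Lrat, for the acyltransferase that makes the retinyl ester on which RPE65 acts, had a lowest, median and highest level of 130, 531 and 832 CPM in control eyes and of 145, 297 and 473 CPM in Nrf2 eyes. It was lower in the Nrf2 eye of 6 of 7 mice, and the Nrf2 range lay inside the control range. Means were 535 ± 243 and 306 ± 116 CPM (SD, n = 7), and the log2 fold change was -0.59 (SE 0.40, edgeR adjusted p 0.46). Mouse 5 was the exception, with 130 CPM in the control eye and 297 CPM in the Nrf2 eye.

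Of the retinol dehydrogenases, Rdh5 encodes the main enzyme that oxidises the cis alcohol in the RPE. Its levels were 734, 1983 and 3169 CPM (lowest, median, highest) in control and 1113, 1454 and 1882 CPM in Nrf2 eyes, so the Nrf2 range lay wholly inside the control range. The log2 fold change was -0.30 (SE 0.30, edgeR adjusted p 0.63). Rdh5 overlaps Bloc1s1 on the same strand, and reads shared by both cannot be assigned with certainty. Rdh11, for a dehydrogenase that accepts both cis and trans retinoids, ranged from 44.2 to 135 CPM around a median of 103 in control eyes and from 52.1 to 91.4 CPM around 72.9 in Nrf2 eyes. Its log2 fold change was -0.16 (SE 0.23, edgeR adjusted p 0.76). Rdh10, for a dehydrogenase that acts on the trans alcohol, had a lowest, median and highest level of 429, 1490 and 2212 CPM in control and 708, 1386 and 2028 CPM in Nrf2 eyes. It was lower in 3 mice and higher in 4, and its log2 fold change of 0.03 (SE 0.40, edgeR adjusted p 0.98) turned to -0.035 without mice 3 and 4.

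Rlbp1 encodes CRALBP, the protein that carries cis-retinoids inside the RPE and in Müller glia. Its control levels had a lowest, median and highest value of 932, 1898 and 2781 CPM and its Nrf2 levels of 838, 1155 and 1635 CPM. It was lower in 5 of 7 mice and 1 Nrf2 library lay below the lowest control library, with a log2 fold change of -0.42 (SE 0.25, edgeR adjusted p 0.41). Of 9 Müller glia genes, 8 had a fold change below 0 and 0 passed in edgeR. The exception, named after its values were seen, was the glutamine synthetase gene Glul, at 0.55 (edgeR adjusted p 0.059, or 0.048 without mice 3 and 4) and higher in 6 of 7 mice. Glul was also the 1 gene at an unadjusted p under 0.05 in edgeR. DESeq2 called 2 (1 higher, 1 lower) and voom 4 (1 higher, 3 lower), each with Glul among them. The part of Müller glia in the Rlbp1 values was not tested.

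Rgr and Rrh encode opsins of the RPE rather than of photoreceptors. Rgr, for an opsin that binds trans-retinal and photoisomerises it, was the most abundant of the 9 genes in CPM, at 1538, 6256 and 11560 CPM (lowest, median, highest) in control and 2205, 4033 and 5580 CPM in Nrf2 eyes. Its log2 fold change was -0.53 (SE 0.45, edgeR adjusted p 0.57). Rrh, for the opsin peropsin of the apical microvilli, was at 80.9, 256 and 403 CPM in control and 251, 321 and 418 CPM in Nrf2 eyes. Its group means were 266 ± 106 and 324 ± 66.2 CPM (SD, n = 7), the Nrf2 eye was above the control eye in 4 of 7 mice, and the log2 fold change was 0.52 (SE 0.32, edgeR adjusted p 0.43). The ranges overlapped for both opsins.

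Stra6, for the membrane receptor through which the RPE takes up retinol from its plasma carrier, had control levels of 346, 775 and 1219 CPM (lowest, median, highest) and Nrf2 levels of 445, 715 and 807 CPM. The Nrf2 range lay inside the control range, and the log2 fold change was -0.12 (SE 0.29, edgeR adjusted p 0.87). Stra6 overlaps Ccdc33 on the other strand, and whether the counting used strand is not given in the sources used here.

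Over the 9 genes the median log2 fold change was -0.30, against -0.04 over all genes tested. It ranged from -0.51, without mouse 5, to -0.11, without mouse 2, when single mice were left out and turned to 0.062 in voom. Without mouse 5 the other 8 ran from -0.90 for Lrat to 0.25 for Rrh, and 0 of the 9 genes were called. Without mice 3 and 4 the other 8 ran from -0.74 for Lrat to 0.62 for Rrh, with edgeR adjusted p from 0.38 to 0.98. The same animal supplied the low end of the control group in every case: control 5 was the lowest control library for all 9 genes, and its Nrf2 partner was higher for each of the other 8. Among other RPE genes, picked here after their values were seen, control 5 was also lowest for the lactate transporter Slc16a8 (401 CPM, against 1368 to 2544 CPM in the other controls) but highest for the melanosome gene Pmel (8334 CPM, against 1823 to 6432 CPM).

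**Figure D2:**
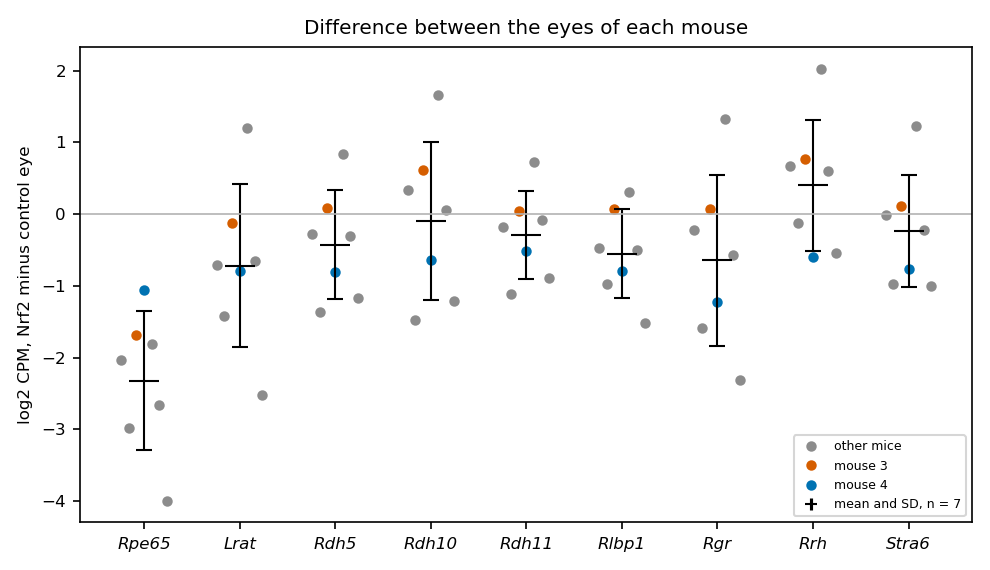
Difference in log2 CPM between the Nrf2 and the control eye of each mouse for each gene, with the mean and SD over 7 mice in black and mice 3 and 4 in colour. All Rpe65 points lie between -4.00 and -1.06, below 0, while the points of each other gene lie on both sides of 0.

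A ratio of counts of 2 genes in 1 library does not depend on how libraries are scaled to each other, so Rpe65 was divided by each other member within each library. The ratio to Rlbp1, the gene closest to Rpe65 across control libraries, was 3.40-fold lower in the Nrf2 eye on average (mean log2 difference -1.76 ± 0.72, SD, n = 7). The ratio to the ester synthase Lrat, the step before the isomerase, was 3.03-fold lower (-1.60 ± 0.82). Against the dehydrogenases the ratio was 3.71-fold lower for Rdh5 (-1.89 ± 0.86), 4.67-fold lower for Rdh10 (-2.22 ± 0.99) and 4.09-fold lower for Rdh11 (-2.03 ± 0.82). It was 4.24-fold lower against Stra6 (-2.08 ± 0.93) and 6.59-fold lower against Rrh (-2.72 ± 1.10). For these 7 ratios the difference was below 0 in 7 of 7 mice, with p = 0.0156 in the exact two-sided sign-flip permutation test, the smallest possible, and 0.0179 after Benjamini-Hochberg adjustment over 8 ratios. Against Rgr the ratio was 3.19-fold lower (-1.67 ± 0.99) and was below 0 in 6 of 7 mice (exact permutation p = 0.0312, adjusted 0.0312), with mouse 4 at 0.17. With 6 mice the Rgr ratio passed only when mouse 4 was the one left out (adjusted 0.0312), and was at an exact permutation p of 0.0625 without any other mouse. All 8 ratios share Rpe65, which by itself gave p = 0.0156 in the same exact sign-flip test. They are therefore not 8 independent results. For each of the 8 ratios 6 Nrf2 libraries lay below the lowest control library. Without mice 3 and 4 the mean log2 differences were larger, from -1.88 for Lrat to -3.22 for Rrh, and the exact permutation p of 0.0625 is the smallest that 5 mice allow.

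Expressed as a share, Rpe65 made up 8.84%, 6.66%, 7.81%, 9.06%, 15.1%, 10.5% and 9.48% of the summed CPM of the 9 genes in control libraries 1 to 7. In Nrf2 libraries 1 to 7 it made up 2.59%, 2.27%, 2.30%, 8.60%, 2.27%, 2.37% and 2.15%. The 95% Wilson intervals of these shares were 0.0854 to 0.357 percentage points wide and cover counting error only. Except for Nrf2 4, the Nrf2 shares were close together although the summed CPM ranged from 6256 to 13136. Nrf2 4 lay inside the control range of 6.66% to 15.1%, and control 3, its nearest library, was within that range too. The group means were 9.63% ± 2.70 and 3.22% ± 2.37 (SD, n = 7), or 10.1% ± 3.12 and 2.33% ± 0.166 (SD, n = 5) without mice 3 and 4.

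**Figure D3:**
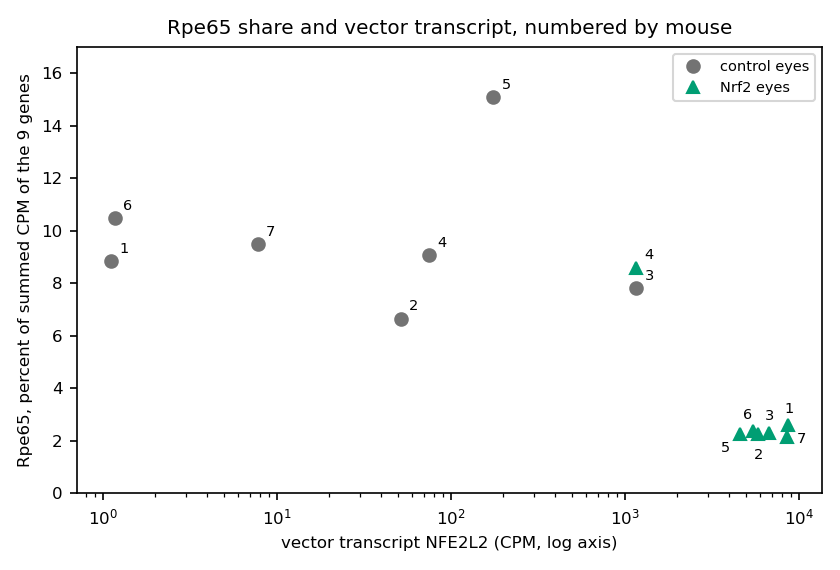
Rpe65 as percent of the summed CPM of the 9 genes against the CPM of the vector transcript NFE2L2 (log axis), 1 point for each of 14 libraries, numbered by mouse. In 6 Nrf2 libraries the share lies between 2.15% and 2.59%, while Nrf2 4 lies beside control 3 at 1163 CPM of vector transcript.

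Whether Rpe65 followed the amount of vector transcript was examined within each group. In the 7 Nrf2 eyes the log2 CPM of Rpe65 and NFE2L2 had a Pearson r of -0.82 (exact permutation p = 0.16, Benjamini-Hochberg 0.32 over both groups) and a Spearman rho of -0.21 (exact permutation p = 0.66, adjusted 0.66). Without Nrf2 1 and Nrf2 4, the libraries farthest from the median of the vector transcript, r was -0.36, so the relation rests on those samples. In the 7 control eyes r was -0.41 (exact permutation p = 0.36, adjusted 0.36), rho was -0.46 (exact permutation p = 0.30, adjusted 0.60), and r was -0.67 without control 1 and control 6. Neither relation passed the test.

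Levels were also compared between genes, as CPM per kilobase of the longest protein-coding transcript. In control eyes Rdh5 (1695 ± 654) and Rgr (1496 ± 731) had the highest means, followed by Rlbp1 (876 ± 279) and Rpe65 (764 ± 302) (SD, n = 7). The SD is the spread across mice. The genes vary together between libraries, so it does not measure differences between genes within a library, which were not tested. Below them came Rdh10 (434 ± 174), Stra6 (264 ± 88.2), Rrh (151 ± 60.3), Lrat and Rdh11 (29.1 ± 9.62). In Nrf2 eyes the order of the other 8 was the same and Rpe65 moved from the fourth place to the seventh, at 184 ± 174 beside Rrh at 184 ± 37.6. The order depends on the length used. Per kilobase of all merged exons Rgr (1471 ± 719) stood above Rdh5 (759 ± 293) in control eyes, Rrh stood below Lrat, and Rpe65 moved from the third place (736 ± 291) to the fifth (177 ± 168).

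The levels of the 9 genes rose and fell together between libraries. Across the 7 control libraries the Pearson r of log2 CPM was 0.93 to 0.99 in all 28 pairs of the other 8 genes, and 0.79 to 0.92 between Rpe65 and each of them. With group means removed over all 14 libraries it was 0.86 to 0.98 among the 8 and 0.40 to 0.78 with Rpe65. Across the 7 Nrf2 libraries it was 0.50 to 0.98 among the 8 and 0.08 to 0.85 with Rpe65. In the 5 Nrf2 libraries left without mice 3 and 4 it was 0.50 to 0.99 among the 8 and 0.71 to 0.99 with Rpe65. Without mice 3 and 4, r with group means removed was 0.88 to 0.99 among the 8 and 0.72 to 0.90 with Rpe65 (10 libraries). These points share their library, so anything that scales all RPE transcripts in a library enters each of them, and control 5 lies at the low end of each gene. Of all 36 ratios between members, those with Rrh stood out after the values were seen. Relative to Rrh each of the other 8 genes had a lower mean in the Nrf2 eye, in 7 of 7 mice for 7 of the 8 and in 6 of 7 mice for Rdh11, by -0.50 (log2) for Rdh10 to -2.72 for Rpe65. No test was made of the ratios that do not involve Rpe65.

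Among the genes whose levels were most like Rpe65 over the 14 libraries, of 12024 genes with at least 5 CPM on average, were Ermap, a membrane protein of the butyrophilin-like family (r = 0.97), Cldn2, a claudin of tight junctions (0.96), Sult1c1, a cytosolic sulfotransferase (0.95), and Sfrp5, a secreted Wnt antagonist (0.94). With group means removed the leading genes included Ermap (0.92), the nuclear receptor Hnf4a (0.88), Cldn2 (0.87) and Sult1c1 (0.86). Without mice 3 and 4 the r of these 5 over 10 libraries was 0.92 to 0.96, but with group means removed it was 0.93 for Ermap, 0.84 for Hnf4a, 0.79 for Sfrp5, 0.66 for Sult1c1 and 0.65 for Cldn2, when Rlbp1 stood at 0.90, Rgr at 0.89 and Lrat at 0.87. Cldn2 went from 140 ± 49.1 to 47.8 ± 25.9 CPM (SD, n = 7; log2 fold change -1.45, SE 0.21, edgeR adjusted p 0.0131), Sult1c1 had a log2 fold change of -1.91 (SE 0.42, edgeR adjusted p 0.0477) and Sfrp5 of -1.69 (SE 0.36, edgeR adjusted p 0.0406). Ermap (-1.32, SE 0.32, edgeR adjusted p 0.068) and Hnf4a (-0.87, SE 0.32, adjusted p 0.20) did not pass. Likeness over 14 libraries includes the difference between the groups, so genes picked by it tend to be lower in Nrf2 eyes. The direction of their fold changes is therefore not a separate result. The Cldn2 call was lost without mouse 1 (edgeR adjusted p 0.052), that of Sfrp5 without mouse 1, 2, 3, 6 or 7 (up to 0.12) and without mice 3 and 4 together (0.068), and that of Sult1c1 without any single mouse other than mouse 4 (up to 0.16). Over 14 libraries, a measure that includes the difference between the groups, Rlbp1 ranked first among the visual cycle genes at 190 (r = 0.82), then Lrat at 500 (0.75), and Rrh came last at 8817 (-0.09). With group means removed Rlbp1 ranked 25 (0.78), Lrat 41 (0.76), Rgr 135 (0.67) and Rrh 1144 (0.40).

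The sequence before the start site was read because Nrf2 acts through the antioxidant response element, and because OTX, SOX and E-box-binding factors are known regulators of RPE genes. RefSeq windows on GRCm38.p6, from 250 bases before to 50 bases after each annotated start, were found for 8 of the 9 genes (12 windows). The motifs searched on both strands were TGACNNNGC (the core of the antioxidant response element, in 12.4% of all 32851 windows), CANNTG (E-box, 72.3%), TAATCC (OTX, 7.06%) and ACAAT (the SOX core, 31.0%). None of the members' 12 windows held TGACNNNGC, and with a share of 12.4% over all windows this absence is not read as a result. The windows of Rpe65, the gene that fell, of Rgr, the only other member with an OTX match, and of Rrh, with the highest fold change of the 9, are printed 5′ to 3′ along the gene, with matches in capitals. They lie at chr3:159598931-159599230 (plus strand), chr14:37048965-37049264 (minus strand) and chr3:129822456-129822755 (minus strand).
Rpe65: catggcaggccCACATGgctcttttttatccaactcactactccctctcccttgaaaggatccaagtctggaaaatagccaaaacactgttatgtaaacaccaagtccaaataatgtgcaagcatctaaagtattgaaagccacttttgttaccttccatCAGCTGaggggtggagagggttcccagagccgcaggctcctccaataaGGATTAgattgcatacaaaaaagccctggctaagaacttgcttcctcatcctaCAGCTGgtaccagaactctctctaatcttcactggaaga
Rgr: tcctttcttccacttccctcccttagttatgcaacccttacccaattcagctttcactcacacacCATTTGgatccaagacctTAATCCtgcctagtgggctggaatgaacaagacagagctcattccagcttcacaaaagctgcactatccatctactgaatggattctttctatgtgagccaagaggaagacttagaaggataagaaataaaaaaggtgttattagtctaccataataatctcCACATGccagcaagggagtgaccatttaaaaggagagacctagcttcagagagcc
Rrh: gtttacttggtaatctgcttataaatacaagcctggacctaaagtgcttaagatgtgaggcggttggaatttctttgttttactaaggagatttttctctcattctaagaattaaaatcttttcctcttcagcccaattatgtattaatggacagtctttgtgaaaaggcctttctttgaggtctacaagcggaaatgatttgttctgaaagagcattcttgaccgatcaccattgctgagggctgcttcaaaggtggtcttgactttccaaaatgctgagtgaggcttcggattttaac
The Rpe65 window held 3 E-box matches, which begin at -239, -90 and 11 counted from the start site, and 1 OTX match, read as GGATTA from -42 to -37. The Rgr window held 2 E-box matches and 1 OTX match, and the Rrh window held none of the motifs. A match describes letters in these windows and says nothing of binding, and a missing match says nothing of sites outside them.

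The other genes of retinoid metabolism were counted from a list of 48 genes, of which 43 were tested and 4 were called, 3 higher and 1 lower in Nrf2 eyes. Their median log2 fold change was -0.15, against -0.04 over all genes, and 2.94% of all genes were called higher. Without mice 3 and 4, 6 were called, 5 higher and 1 lower: Rbp3 lost its call, and Rdh12 (1.05, edgeR adjusted p 0.0398), the uptake receptor Lrp2 (1.60, adjusted p 0.0433) and Aldh1a3 (-2.07, adjusted p 0.0301) gained one. Rdh12 and Lrp2 were picked after their values were seen. Among genes of retinoid uptake, Lpl, for the lipoprotein lipase that frees lipids from circulating particles, had a lowest, median and highest level of 73.9, 155 and 236 CPM in control and 249, 595 and 792 CPM in Nrf2 eyes. The groups did not overlap, and the log2 fold change was 1.93 (SE 0.23, edgeR adjusted p 0.00936), past the threshold with any 1 mouse left out. Among carriers, Rbp4, for the secreted retinol carrier that binds STRA6, rose from 2.44 ± 1.33 to 13.03 ± 6.28 CPM (SD, n = 7; log2 fold change 2.53, SE 0.39, edgeR adjusted p 0.0146), higher in 7 of 7 mice, and its adjusted p reached 0.059 when mouse 1, 3, 5 or 7 was left out. Its partner transthyretin (Ttr) was far more abundant, at 3401 ± 1526 and 9005 ± 3836 CPM (SD, n = 7), was higher in 6 of 7 mice and did not pass (log2 fold change 1.58, SE 0.45, edgeR adjusted p 0.10).

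Bco1, for the oxygenase that cleaves beta-carotene into retinal, rose from a low level, 1.68 ± 1.63 to 18.2 ± 8.89 CPM (SD, n = 7), with 0 counts in 1 control library. Its log2 fold change was 4.06 (SE 0.70, edgeR adjusted p 0.0214), with the Nrf2 eye above the control eye in 7 of 7 mice, and its adjusted p was above 0.05 (up to 0.084) without mouse 1, 2, 5, 6 or 7. Of the photoreceptor arm, Rbp3, which encodes the retinoid carrier of the space between photoreceptors and RPE and is made by photoreceptors, was lower in 7 of 7 mice, with 17.6, 85.6 and 444 CPM (lowest, median, highest) in control and 2.67, 7.70 and 18.6 CPM in Nrf2 eyes. Its log2 fold change was -3.19 (SE 0.60, edgeR adjusted p 0.0275), and the adjusted p was 0.066 without mice 3 and 4 and up to 0.10 without mouse 2, 3, 5 or 7. Rod and cone transcripts moved the same way: the fold change was below 0 for 10 of 10 rod genes, of which 0 passed in edgeR (4 at an unadjusted p under 0.05, 4 by DESeq2, 5 by voom), and for 10 of 10 cone genes, of which 2 passed, Opn1sw and Gnat2 (6 by DESeq2, 9 by voom), in 3 and 2 of the 7 fits that each omitted 1 mouse. Without mice 3 and 4, Gnat2 passed (edgeR adjusted p 0.0158) and Opn1sw did not (0.11). The part of rods and cones in the Rbp3 values was not tested. Abca4, for the retinoid flippase of photoreceptor discs that the RPE also expresses, had a log2 fold change of 0.20 (SE 0.20, edgeR adjusted p 0.62). Rdh12, for a retinal reductase of photoreceptors, had a fold change of the other sign than Rbp3, at 0.80 (SE 0.23, edgeR adjusted p 0.11), with the Nrf2 eye above the control eye in 6 of 7 mice.

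In the remaining roles, the other dehydrogenases, the other acyltransferases and hydrolases, retinoic acid synthesis and breakdown, and nuclear receptors, edgeR called 0 of 27 genes tested, against 2 at an unadjusted p under 0.05, 1 by DESeq2 and 3 by voom. With 3.43% of all genes called, 0 of 27 is near the background. The most abundant genes of these roles had log2 fold changes of -1.14 for Adh1 (an alcohol dehydrogenase, adjusted p 0.36), 0.02 for Degs1 (a desaturase also studied as a retinol isomerase, adjusted p 0.96), -1.54 for Aldh1a3 (a retinal dehydrogenase that makes retinoic acid, adjusted p 0.29), -0.31 for Cyp26b1 (which degrades retinoic acid, adjusted p 0.72) and -0.31 for Rxrb (a retinoid X receptor, adjusted p 0.35), all in the same edgeR test. Rdh8, Rdh7, Adh4, Crabp1 and Cyp26c1 had too few counts to be tested.

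**Figure D4:**
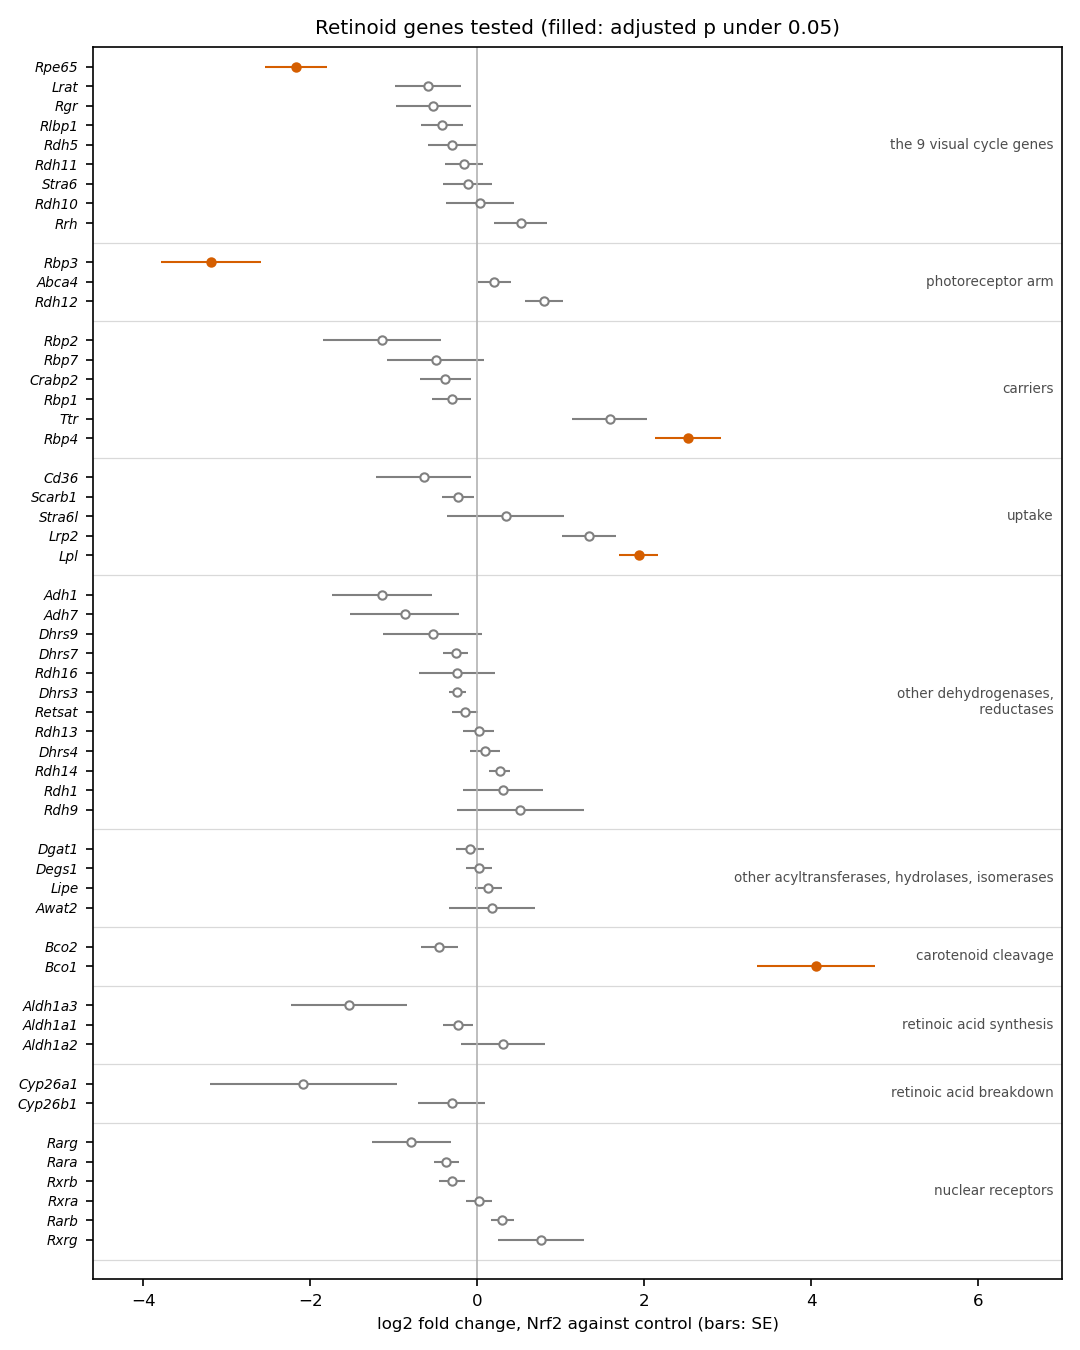
Log2 fold change of Nrf2 against control eyes for the 9 visual cycle genes and 43 other retinoid genes, grouped by role, with bars for the SE and filled points for an edgeR adjusted p under 0.05. Rpe65 (-2.17) and Rbp3 (-3.19) are filled to the left of 0 and Rbp4 (2.53), Lpl (1.93) and Bco1 (4.06) to the right.

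Transcription factors that build and maintain the RPE were called in 0 of 6 cases (Otx2, Mitf, Sox9, Lhx2, Pax6 and Tfec), where Otx2, the most abundant, stood at 313 ± 66.9 and 333 ± 66.2 CPM (SD, n = 7; log2 fold change 0.23, SE 0.18, edgeR adjusted p 0.54). Of the 21 other RPE genes 0 were called. Since 3.43% of all genes were called, counts of 0 in lists of this size are near the background share. The median log2 fold change was 0.19 for the 6 factors and 0.08 for the 21 genes. At an unadjusted p under 0.05 there were 1 of the factors (Pax6) and 3 of the other RPE genes (Ezr and Tyr higher, Krt8 lower). Pax6 went against the median of the factors, with a log2 fold change of -0.64 (SE 0.19, edgeR adjusted p 0.13). It was lower in 6 of 7 mice, and its edgeR adjusted p was 0.054 without mice 3 and 4. After adjustment DESeq2 called 1 factor (Pax6, lower) and 2 of the RPE genes (both higher), and voom called 1 (Pax6, lower) and 3 (all higher).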

How the data were processed

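Eyes of 7 rd1 mice gave 14 RPE libraries. The authors made cDNA by low-input amplification, mapped reads to mm10 with Ensembl annotation and also ran Salmon 0.9.1. The table the authors deposited holds estimated counts in whole numbers, 1 row a gene, not normalized between libraries, and which counter made them is not given in the sources used here. Of 34452 mouse gene names, 34401 matched GENCODE M21. The vector transcript, a row of human NFE2L2, was fitted and left out of every count of genes. Groups and replicate numbers came from the labels, which give 7 numbers in each group, taken here as 7 mice. The study's methods state another number of pairs at this age, and all 7 were used.

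The 9 members and the gene lists were chosen with earlier results of these data known. Named were all members, called genes of the retinoid and regulator lists with the most abundant gene of each role, Best1, called RPE genes, and the 5 genes most like Rpe65 by each measure, of which 1 is not reported here. CPM were scaled to library totals of 1e+06. Treatment was tested in edgeR 4.0.16 under R 4.3.3, by its quasi-likelihood test in a model that also held mouse, after TMM scaling and filterByExpr with a minimum count of 10, and Benjamini-Hochberg adjustment over 16289 genes (threshold 0.05, 6 residual degrees of freedom), checked on simulated data. SE were derived from its F statistic. Paired log2 CPM (prior count 2) and ratios were tested by exact two-sided sign-flip permutation over 128 sign patterns. P-values cover the spread between these mice. The labels number treated and control libraries as replicates and name no animal. Equal numbers were taken as the eyes of 1 mouse because the study paired eyes within mice. The correlation of the eyes' deviations from their group means was 0.01, 0.08, 0.03, -0.31, 0.30, -0.16 and 0.14 in mice 1 to 7. These values have both signs, so the pairing rests on the replicate numbers alone. Alternatives were no block, RLE scaling, no filter, DESeq2 1.42.0, voom with quality weights (limma 3.58.1), a prior count of 0.5, and mice left out singly or, for 3 and 4, together. The likeness to Rpe65 and the calls of other retinoid genes without mice 3 and 4 were added after seeing the data, as were the Rpe65 means and member correlations without those mice.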

Additional observations from a re-analysis of the deposited data

Results flagged for a closer look

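In 4 of 38 groups of 7 values, 1 value lay farther from the rest than Dixon's 95% limit allows, where chance gives about 1.9 such groups. Rpe65 in the library Nrf2 4 was at 1063 CPM, when the other Nrf2 libraries lay between 134 and 316 CPM. The vector transcript NFE2L2 in the library control 3 was at 1163 CPM, when the other control libraries lay between 1.12 and 175 CPM. The log2 ratio of Rpe65 to Rlbp1 differed between the eyes of mouse 4 by -0.27, against a mean of -1.76 over 7 mice. The log2 ratio of Rpe65 to Rrh differed between the eyes of mouse 4 by -0.47, against a mean of -2.72 over 7 mice. Of these 4, 3 come from the library Nrf2 4 and its partner and are not independent of each other.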

How the results depend on the processing

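Rpe65 stayed lower and past the threshold without the replicate block (-1.93), with RLE scaling (-2.16), without a filter (-2.17), in DESeq2 (-2.16) and in voom (-2.08). When single mice were left out it ranged from -2.39 to -1.90, and 0 to 1 members were called. Its ratio to Rgr ranged from -1.98 to -1.43 in those fits and passed only without mouse 4. The ratios without mice 3 and 4 cannot pass at 5 mice: -1.88 (Lrat), -2.24 (Rdh5), -2.57 (Rdh10), -2.39 (Rdh11), -2.07 (Rlbp1), -2.02 (Rgr), -3.22 (Rrh) and -2.50 (Stra6). Small fold changes turned sign, and the cause was not tested: Rdh10 was -0.0055 without the block, -0.035 without mice 3 and 4 and -0.26 to 0.29 with 1 mouse left out, voom gave 0.062 for Rdh5, 0.090 for Rdh11 and 0.23 for Stra6, and leaving out 1 mouse gave -0.33 to 0.0072 for Rdh11 and -0.35 to 0.039 for Stra6. The number of genes called over the whole table, 559, was 1100 without the replicate block, 347 without a filter, 1943 in DESeq2, 2590 in voom and 111 to 1998 with 1 mouse left out, where the highest was without mouse 4. Other retinoid genes called, 4, were 8 in DESeq2, 11 in voom and 1 to 12 with 1 mouse left out. The RPE factors and other RPE genes called, 0, were 1 without the block, 3 in DESeq2, 4 in voom and 0 to 3 with 1 mouse left out. The block changed no call among the 9 genes. Depth did not limit the members, all above 40 CPM in every library, whereas Bco1, Rbp4 and Best1 rest on few counts.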
